A study of Lachancea kluyveri with 9 samples.

Results

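The shortest gene models of the yeast Lachancea kluyveri were examined: the 292 models, of 5189 in the deposited count table, that had a single coding part under 400 bp. Models within 30000 bp of the first base or of the last model end of a chromosome were left out, as were models on chromosome C that start at or before position 1000000. The coding range of 16 of the 292 overlapped another model on the opposite strand, and these 16 are given apart. The other 276 are called short models below. They were set against 3627 longer single-part models from the same chromosome regions that overlapped no model on the opposite strand. No measured level entered this choice.

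Poly(A) RNA was sequenced from a cells (strain yLB76), alpha cells (strain yLB77) and a/alpha cells (strain FDy22), with 3 libraries for each cell type. The labels give all 3 strains as wild type and prototrophic, and no further allele is given. Cultures grew in YPED medium at 30 °C from an optical density of 0.1 in 10 mL to between 0.5 and 1.0. Each cell type was 1 strain, so strain and cell type cannot be told apart. Within a culture, fewer cells with a transcript and less of it per cell cannot be told apart either. The study asked which genes are active in both mating types and not in a/alpha cells.

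Haploid budding yeasts are of mating type a or alpha, and each type makes its own pheromone and the receptor for the other's. In a/alpha cells of Saccharomyces cerevisiae, the a1 and alpha2 proteins together switch off the haploid-specific genes, which serve mating. Several mating genes of that species are very short, among them those for the a-factor precursors, for the Aga2 agglutinin subunit and for Ste18, the gamma subunit of the pheromone-signalling G protein. Many of its ribosomal proteins and small respiratory subunits are also encoded by short genes. The deposited files pair no gene name with the models, so none is assigned here. Models are given by their coordinates in the deposited table, which names no build.

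Counts per library ran from 6379488 to 10776548 in 8 libraries, and a/alpha replicate 1 held 743244. A count of 3, taken as the detection floor, was worth 4.117 CPM in that library and 0.2808 to 0.4527 CPM in the others, for counting error only. CPM values are counts scaled by library size after TMM normalisation. The headers call the libraries biological replicates.

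The short models ran from 177 to 399 bp of coding sequence, with a median of 309 bp, and all lengths were multiples of 3. The identifiers name the gene predictor: 160 models (58%) came from augustus_masked, 111 (40.2%) from snap_masked and 5 from genemark. They lay on all 8 chromosomes. Spacing was close to that of the longer models: the smaller of the gaps to the 2 adjacent models had a median of 232 bp, against 226 bp. Of the 276, 257 passed the filter on low counts and were tested. The 19 that did not had at most 14 counts in any library, and 1 of them had 0 counts in all 9.

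Short models stood at a high level for their length. Among models past the filter, the median level was 198 CPM per kb of coding sequence for the 257 short models and 33.9 CPM per kb for the 3584 longer ones that passed. Levels above 1000 CPM per kb were reached by 44 short models (17.1%) and by 59 longer models (1.65%). Counting reads that hang over a model's ends adds most to short models, and with 64 bp (the read length less 1) added to each length the medians were 166 and 32.4 CPM per kb.

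**Figure D1:**
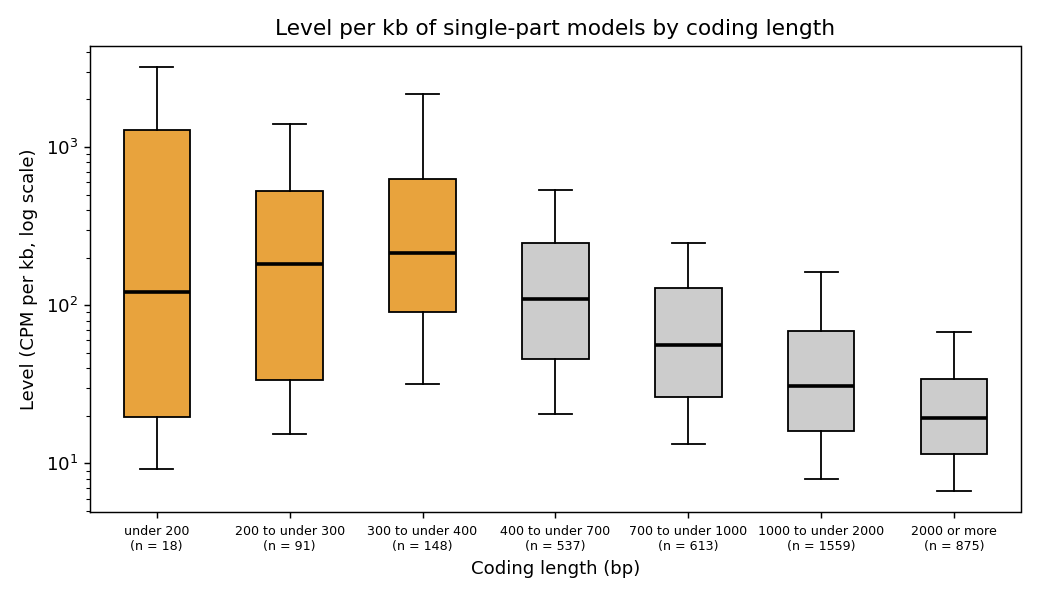
Level (CPM per kb of coding sequence, log scale, mean of the 3 group means) of single-part models by coding length. Lines are medians, boxes the quartiles and whiskers the 10th and 90th percentiles; the median was 214 CPM per kb from 300 to under 400 bp and 19.3 CPM per kb at 2000 bp or more.

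Median levels rose with length among the short models and fell with length above 400 bp. The median was 121 CPM per kb for the 18 models under 200 bp, 183 CPM per kb from 200 to under 300 bp and 214 CPM per kb from 300 to under 400 bp. It was 110 CPM per kb from 400 to under 700 bp and 55.7 CPM per kb from 700 to under 1000 bp. Just inside the limit, 36 models of 380 bp or more had a median of 238 CPM per kb, and just outside it, 21 models under 420 bp had 153 CPM per kb. The level also differed by predictor. Short models of augustus_masked had a median of 346 CPM per kb and those of snap_masked 54.4 CPM per kb, while the longer models of these predictors had 37.1 and 22.5 CPM per kb.

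Few models carried most of the reads. The 5 short models with the most counts held 34.3% of all counts in short models, as a mean over libraries, and the 50 with the most held 83.5%. Ranked by level per kb instead, which shares 4 of those 5, the first was a 219 bp model on chromosome A (699515 to 699733, plus strand), at 29911 CPM per kb. Its level was 3547, 5662 and 6071 CPM in a cells, 6583, 9332 and 13527 CPM in alpha cells, and 5667, 4198 and 4367 CPM in a/alpha cells. Every alpha library lay above every other library, while a and a/alpha cells overlapped. It was higher in alpha than in a/alpha cells by 1.05 ± 0.27 on the log2 scale (SE, adjusted p = 0.0285). This was not past the threshold without alpha replicate 2 or 3 or a/alpha replicate 2 or 3 (adjusted p from 0.0796 to 0.147). Nor was it in the fits, described below, that take out a trend with coding length, at 0.53 (adjusted p = 0.0542) by offsets and 0.43 (adjusted p = 0.0961) by a covariate.

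The other 4 of the 5 highest per kb lay on chromosome H (2177221 to 2177577, plus strand, 22075 CPM per kb), F (1044468 to 1044860, minus strand, 11731 CPM per kb) and A (472961 to 473335, plus strand, 10753 CPM per kb, and 875884 to 876237, minus strand, 10279 CPM per kb). The model at 472961 differed from the rest of these 5 in being abundant in alpha cells alone, and its values are given with that cell type. At the other extreme of variation, a 351 bp model on chromosome A (684737 to 685087, plus strand) had the smallest range of group means among short models at 100 CPM or more in every group. It stood at 283 ± 45.3 CPM in a, 317 ± 69.2 CPM in alpha and 312 ± 49.6 CPM in a/alpha libraries (SD, n = 3). Models on chromosome G (872783 to 873139, minus strand) and F (695889 to 696257, plus strand) came next, with ranges of 0.21 and 0.25 on the log2 scale. None of these 3 was called in any comparison.

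The share of all reads in short models varied between libraries. The a libraries held 6.17, 7.61 and 8.4%, the alpha libraries 7.91, 8.94 and 10.5%, and the a/alpha libraries 6.77, 5.6 and 6.1%. The 3 alpha libraries lay above the 3 a/alpha libraries, and the a libraries overlapped both. The median level per kb of short over longer models, on the log2 scale, was 2.41 ± 0.29 for the a libraries, 2.85 ± 0.31 for the alpha libraries and 2.23 ± 0.14 for the a/alpha libraries (SD, n = 3). These are folds of 5.3, 7.23 and 4.68. No p-value is given for a summary over the members.

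The deviation from the mean of the 9 libraries moved with coding length in some libraries, and there the trend ran on into the longer models. It was clearest in a replicate 1 and alpha replicate 3, while alpha replicate 1 showed little of it. The median deviation of short models, on the log2 scale, was -0.41, -0.05 and 0.08 in the a libraries, 0.07, 0.31 and 0.70 in the alpha libraries, and -0.09, -0.35 and -0.15 in the a/alpha libraries. Replicates of 1 cell type thus stood apart from each other, with alpha replicate 3 highest and a replicate 1 lowest. Models of 400 to under 700 bp, set against models of 2000 bp or more, showed a difference of -0.579, -0.133 and 0.038 for the a libraries, -0.006, 0.29 and 0.627 for alpha, and -0.072, -0.18 and -0.004 for a/alpha, with no short model in that measure. Fits that take out this trend are given beside the counts below, and the cause of the trend was not tested.

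**Figure D2:**
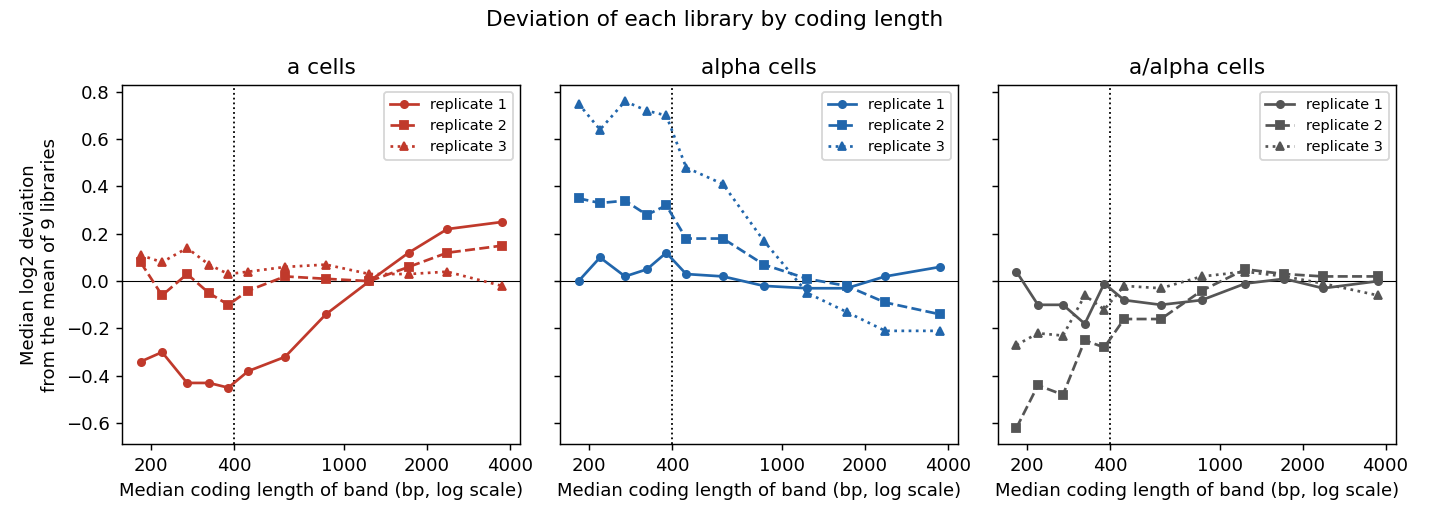
Median log2 deviation of each library from the mean of the 9 libraries, by coding length of single-part models (log scale), with 1 panel for each cell type and 1 line for each replicate; the dotted line marks 400 bp. In alpha replicate 3 the deviation was 0.75 under 200 bp and -0.21 at 3000 bp or more, and in a replicate 1 it was -0.34 and 0.25.

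Differences between cell types were tested with edgeR's quasi-likelihood test over all 5042 models past the filter, with Benjamini-Hochberg adjusted p-values and a threshold of 0.05. Standard errors were derived from the F statistics and are approximate. The comparisons of a with a/alpha cells and of alpha with a/alpha cells share the 3 a/alpha libraries, so their values are given side by side.

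In a cells against a/alpha cells, 26 short models were higher and 6 were lower. The 32 called are 12.5% of the short models tested, against 12.9% of all models tested and 13.2% of the longer ones. By direction, all models tested were called higher in 7.32% and lower in 5.61% of cases. A call of at least a doubling was made for 21 short models, where all models tested gave 3.83%, and of at least a halving for 1, where all models gave 1.31%. The median difference was 0.05 for short models and 0.02 for all models on the log2 scale. Leaving out a replicate 1 gave a count of 58, where 21.2% of all models were called, and leaving out either a replicate 2 or a/alpha replicate 2 gave 21, where 6.6% and 6.96% were.

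The strongest difference was in a 294 bp model on chromosome H (1844663 to 1844956, minus strand, augustus_masked-SAKL0H-processed-gene-18.122). Its level was 2654, 3582 and 4543 CPM in a cells, 38.5, 60.5 and 71.9 CPM in alpha cells, and 1.37, 1.03 and 2.9 CPM in a/alpha cells. The 3 cell types did not overlap, and the a/alpha value of replicate 1 came from 1 count, under the floor. The difference from a/alpha cells was 10.88 ± 0.46 in a cells (adjusted p = 5.12e-09) and 4.90 ± 0.41 in alpha cells (adjusted p = 5.15e-06), on the log2 scale. Without a/alpha replicate 3 these were 11.72 and 5.73. The adjacent models, 573 and 720 bp away, were called in neither comparison with a/alpha cells.

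A 354 bp model on chromosome B (201411 to 201764, plus strand) stood at 1893, 2514 and 2526 CPM in a cells, 340, 538 and 617 CPM in alpha cells, and 16.5, 34.3 and 47.8 CPM in a/alpha cells. The cell types fell in that order without overlap. Against a/alpha cells the difference was 6.0 ± 0.34 in a cells (adjusted p = 8.26e-08) and 3.79 ± 0.31 in alpha cells (adjusted p = 4.85e-06), on the log2 scale. The next model, 341 bp away on the minus strand (202106 to 203686), was also higher in a than in a/alpha cells, by 3.21 (adjusted p = 3.87e-04), at only 7.39 CPM in a cells.

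The same order held for a 339 bp model on chromosome G (681960 to 682298, minus strand), with 1009, 1609 and 1511 CPM in a cells, 401, 576 and 685 CPM in alpha cells, and 79.6, 82.4 and 114 CPM in a/alpha cells. Here too no library of 1 cell type reached into another. It rose over a/alpha cells by 3.88 ± 0.27 in a cells (adjusted p = 4.81e-07) and by 2.57 ± 0.25 in alpha cells (adjusted p = 2.56e-05), on the log2 scale.

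A 300 bp model on chromosome F (1112265 to 1112564, plus strand) was high in both mating types: 44.6, 63.4 and 62.9 CPM in a cells, 50.7, 55.6 and 74.1 CPM in alpha cells, and 4.12, 3.18 and 5.05 CPM in a/alpha cells. The a and alpha libraries overlapped, and both lay above the a/alpha libraries. The a/alpha value of replicate 1 came from 3 counts, at the floor. The difference from a/alpha cells was 3.80 ± 0.27 in a cells (adjusted p = 6.87e-07) and 3.87 ± 0.27 in alpha cells (adjusted p = 1.15e-06), and that between a and alpha cells was -0.08 ± 0.20 (adjusted p = 0.815), on the log2 scale. The minus-strand model 39 bp to its right (1112604 to 1113203) was higher too, by 1.05 in a cells and 1.14 in alpha cells (adjusted p = 0.00202 and 0.00183). Reads of such close neighbours cannot be told apart with certainty from coding counts.

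**Figure D3:**
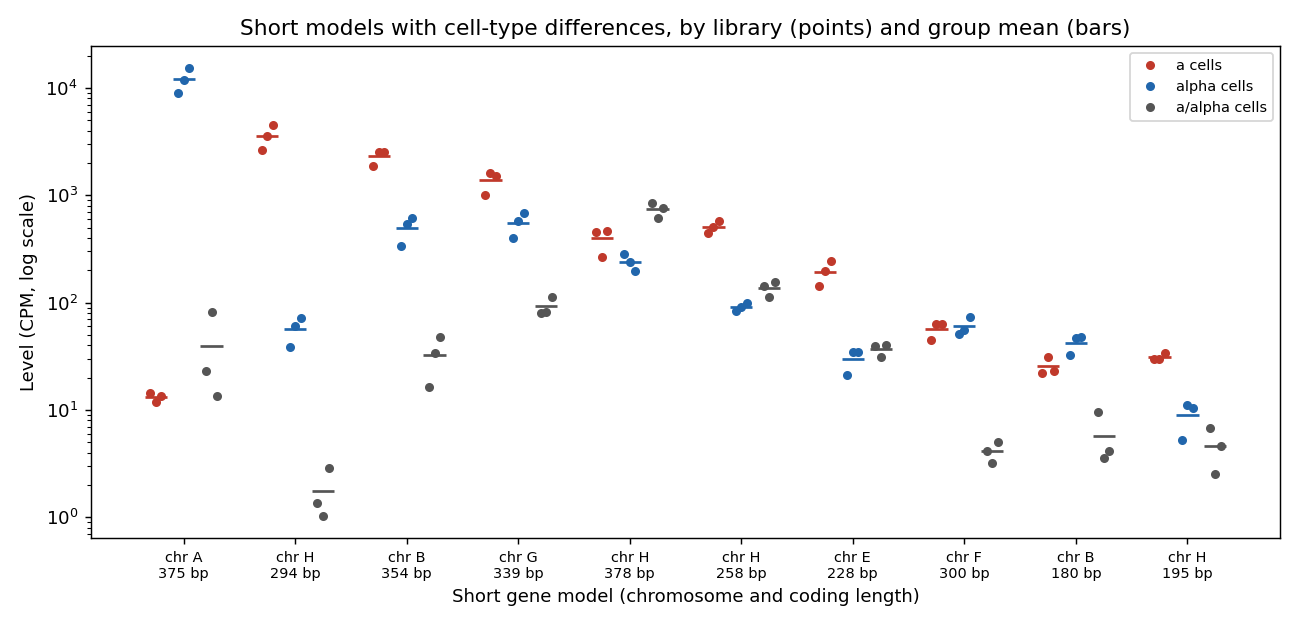
Level (CPM, log scale) of 10 short models in each library (points) with the group means (bars), labelled by chromosome and coding length and ordered by their highest group mean. The model of 375 bp on chromosome A was high in alpha cells alone, at 12044 CPM, and that of 294 bp on chromosome H was highest in a cells, at 3593 CPM.

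A 195 bp model on chromosome H (721167 to 721361, plus strand) had 30.1, 30.0 and 33.9 CPM in a cells, 5.28, 11.2 and 10.4 CPM in alpha cells, and 6.86, 2.53 and 4.62 CPM in a/alpha cells. The a libraries stood above all others, and the alpha and a/alpha libraries overlapped. The difference from a/alpha cells was 3.05 ± 0.33 in a cells (adjusted p = 5.03e-05) and 1.25 ± 0.34 in alpha cells (adjusted p = 0.0392), on the log2 scale. The second was not past the threshold without a replicate 2, alpha replicate 2 or 3, or a/alpha replicate 2 or 3 (adjusted p from 0.0524 to 0.256), nor with the trend with coding length removed by offsets (0.66, adjusted p = 0.158) or taken as a covariate (0.98, adjusted p = 0.0951). Its left neighbour on the same strand, another short model (719919 to 720158, 240 bp), was higher over a/alpha cells by 2.15 in a cells (adjusted p = 0.00355).

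The remaining models called higher in a than in a/alpha cells differed by 0.70 or more on the log2 scale, and the median over all 26 was 1.85. An adjacent model was called in the same direction for 12 of the 26 (46.2%), against 56 of 271 longer models called higher (20.7%). The other contrasts lay closer. For models lower in a than in a/alpha cells it was 16.7% of short and 17.8% of longer models. For models higher in alpha than in a/alpha cells it was 22.4% and 20%. In a against alpha cells it was 30.8% and 18.9% of models higher in a cells, and 32.4% and 25.7% of those higher in alpha cells. These are descriptions with no test. The part of shared reads or shared transcripts was not tested.

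Of the 6 models lower in a than in a/alpha cells, a 378 bp model on chromosome H (896848 to 897225, minus strand, snap_masked-SAKL0H-processed-gene-9.54) was lower in both mating types. Its level was 458, 269 and 468 CPM in a cells, 283, 239 and 198 CPM in alpha cells, and 845, 609 and 766 CPM in a/alpha cells. All 3 a/alpha libraries lay above the other 6, while a and alpha cells overlapped. The difference from a/alpha cells was -0.89 ± 0.22 in a cells (adjusted p = 0.0211) and -1.62 ± 0.23 in alpha cells (adjusted p = 7.09e-04), on the log2 scale. The first of these was not past the threshold without a replicate 2, a/alpha replicate 1 or a/alpha replicate 3, with an adjusted p between 0.0738 and 0.0858.

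Another 4 models lower in a than in a/alpha cells differed by -0.88 to -0.70 on the log2 scale. On chromosome B (815310 to 815627) the mean was 852 ± 132 CPM in a cells and 1567 ± 433 CPM in a/alpha cells, and on chromosome G (261471 to 261797) it was 716 ± 85.3 and 1161 ± 131 CPM (SD, n = 3). Models on chromosome A at 244466 to 244831 and at 61450 to 61848 differed by -0.81 and -0.72 on the log2 scale (adjusted p = 0.0381 and 0.0193). None of these 4 was past the threshold in alpha against a/alpha cells, and each of the 4 was lost in a against a/alpha cells when a replicate 2 was left out. Those at 815310 and 261471 were also lost without a/alpha replicate 2, that at 61450 without a/alpha replicate 3, and that at 244466 without alpha replicate 2 or any 1 a/alpha library (adjusted p from 0.0577 to 0.108). The sixth was the alpha-cell model at 472961 on chromosome A, at -1.67 ± 0.50 (adjusted p = 0.043), whose a and a/alpha libraries overlapped. Without a/alpha replicate 2 it was at -0.26 (adjusted p = 0.692), and it was also lost without a replicate 2 or 3, alpha replicate 2 or a/alpha replicate 1 and with DESeq2 (adjusted p from 0.0645 to 0.129).

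In alpha cells against a/alpha cells, 76 short models were higher and 2 were lower. The 78 called are 30.4% of the short models tested, against 10.3% of all models tested and 8.9% of the longer ones. All models tested were called higher in 6.55% and lower in 3.71% of cases. A call of at least a doubling was made for 38 short models, where all models gave 2.9%, and of at least a halving for 1, where all models gave 1.71%. The median difference was 0.59 for short models and 0.01 for all models on the log2 scale.

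Most of these 76 calls were not kept in fits that take out the length trend of the libraries. The offsets were fitted over all models tested, short ones included, so they draw the median of short models towards 0 by construction. With that trend removed from each library by offsets, 29 of the 76 were still higher, the median difference of short models was 0.15 on the log2 scale, and all models were called higher in 6.09%. With the trend of the longer models as a covariate, 31 of the 76 were still higher, the median was 0.21, and all models were called higher in 4.6%. Of the 38 at least doubled, 28 were called under each of these fits. Both were chosen after seeing the data. The trend was mostly higher in alpha than in a/alpha libraries, so these fits may also take out differences of cell type. What the trend and the cell type each add cannot be told apart here. The count of 78 became 132 without a replicate 1, 127 without alpha replicate 1, 34 without alpha replicate 2, 25 without alpha replicate 3, 18 without a/alpha replicate 2 and 23 without a/alpha replicate 3. Of all models, those fits called 23.1, 19.4, 4.3, 3.87, 3.0 and 3.6%. For a against a/alpha cells the same fits kept all 26 models called higher, and gave 36 and 65 higher in all, where all models were called higher in 8.49% and 14.8%.

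**Figure D4:**
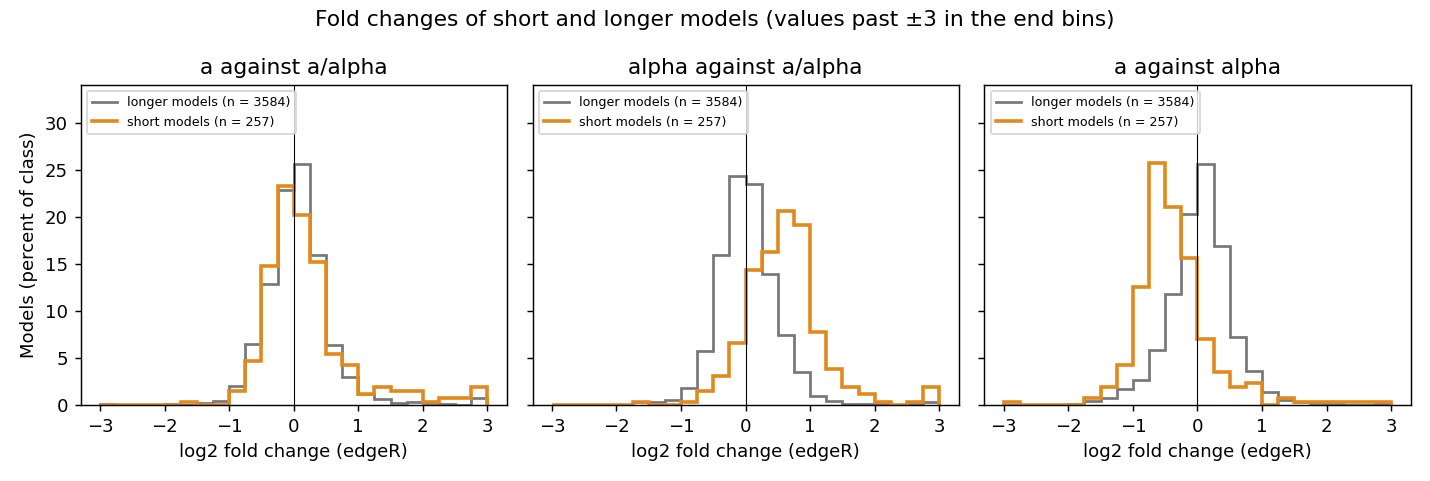
Share of models (percent of the class) by log2 fold change, in bins of 0.25, for 257 short and 3584 longer models in the 3 comparisons. The short models centre on 0.05 in a against a/alpha cells, 0.59 in alpha against a/alpha cells and -0.46 in a against alpha cells, while the longer models centre on 0.04, 0.01 and 0.06.

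The largest difference was in the 375 bp model on chromosome A (472961 to 473335, plus strand, augustus_masked-SAKL0A-processed-gene-4.25). Its level was 9002, 11894 and 15236 CPM in alpha cells, 14.5, 11.9 and 13.5 CPM in a cells, and 23.3, 81.1 and 13.5 CPM in a/alpha cells. The alpha libraries stood far above all others, and a/alpha replicate 2 stood above the other 2 of its group. The difference from a/alpha cells was 8.15 ± 0.61 in alpha cells (adjusted p = 1.98e-06), on the log2 scale, and 9.56 without a/alpha replicate 2. Its mean in alpha cells was 12044 ± 3120 CPM (SD, n = 3). Its neighbours, 1863 bp to the left and 463 bp to the right, were not called in alpha against a/alpha cells.

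A 180 bp model on chromosome B (359144 to 359323, plus strand) was higher in both mating types, at 22.2, 31.5 and 23.2 CPM in a cells, 32.6, 46.8 and 48.2 CPM in alpha cells, and 9.61, 3.56 and 4.19 CPM in a/alpha cells. Every a/alpha library lay below every other library. The differences from a/alpha cells were 2.57 ± 0.30 in a cells (adjusted p = 7.92e-05) and 3.30 ± 0.30 in alpha cells (adjusted p = 9.91e-06), on the log2 scale, the second being 2.69 with the length trend removed by offsets. The model to its left (356529 to 356886, same strand), 2257 bp away, was also higher in both, by 2.17 in a cells and 1.37 in alpha cells (adjusted p = 0.00171 and 0.0378). The model to the right of the 180 bp model (361438 to 362559), 2114 bp away, differed the other way, by -3.16 and -2.63 (adjusted p = 1.56e-05 and 1.04e-04).

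The 2 models lower in alpha than in a/alpha cells were the one on chromosome H at 896848, given above, and a 258 bp model on chromosome H (1999166 to 1999423, minus strand). The latter was mainly high in a cells: 444, 512 and 580 CPM in a cells, 84.4, 90.2 and 98.6 CPM in alpha cells, and 144, 112 and 156 CPM in a/alpha cells. The a libraries stood apart, and the alpha libraries lay below the a/alpha libraries by a smaller step. The difference from a/alpha cells was 1.91 ± 0.18 in a cells (adjusted p = 8.66e-06) and -0.58 ± 0.17 in alpha cells (adjusted p = 0.0496), on the log2 scale. The second was lost under 9 alternatives, with an adjusted p up to 0.195 without a/alpha replicate 3.

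In a cells against alpha cells, 13 short models were higher in a cells and 71 were higher in alpha cells. The 84 called are 32.7% of the short models tested, against 17.9% of all models tested and 17.8% of the longer ones. All models tested were called higher in a cells in 8.05% and lower in 9.9% of cases. A call of at least a doubling was made for 7 short models, where all models gave 2.68%, and of at least a halving for 19, where all models gave 2.94%. The median difference was -0.46 for short models and 0.05 for all models on the log2 scale. With the replicate number as a block, 136 were called, 17 higher and 119 lower, where 31.2% of all models were called. The count of 84 became 44 without a replicate 2, 44 without alpha replicate 2, 29 without alpha replicate 3 and 53 without a/alpha replicate 3, where 11.6, 9.59, 8.44 and 13.7% of all models were called.

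Counts in this comparison also changed in the fits that take out the length trend, with the offsets again fitted over the short models too. The trend was mostly higher in alpha than in a libraries, so these fits may also take out differences of cell type. With the trend removed by offsets, 23 short models were higher in a cells and 25 were higher in alpha cells. All models gave 7.38% and 9.1%, and the median difference of short models was -0.03 on the log2 scale. With the trend as a covariate there were 16 and 13, where all models gave 5.87% and 7.62%, with a median of -0.00. Of the 71 higher in alpha cells, 25 and 13 were still called under these fits, and of the 13 higher in a cells, 13 and 12. With upper-quartile size factors, which moved the median of all models by 0.12 on the log2 scale towards a cells, the counts were 15 and 43, where all models gave 12.5% and 7.32%.

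Of the 5 models with the largest excess in a over alpha cells, the leading one was the 294 bp model on chromosome H, at 5.98 ± 0.34 on the log2 scale (adjusted p = 1.56e-07). Second was a 228 bp model on chromosome E (959065 to 959292, plus strand), with 143, 196 and 245 CPM in a cells, 21.0, 34.9 and 34.5 CPM in alpha cells, and 39.8, 31.5 and 40.6 CPM in a/alpha cells. Only the a libraries of this model stood apart, since alpha and a/alpha cells overlapped. It was higher in a than in alpha cells by 2.69 ± 0.24 (adjusted p = 1.92e-05). The model at 1999166 on chromosome H followed at 2.49 ± 0.18 (adjusted p = 1.55e-06), then that at 201411 on chromosome B at 2.21 ± 0.28 (adjusted p = 3.43e-04) and that at 721167 on chromosome H at 1.80 ± 0.28 (adjusted p = 0.00117). With the length trend as a covariate, those at 1844663, 959065 and 201411 were at 6.7, 3.31 and 2.80.

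On the alpha side, the model at 472961 on chromosome A was again far ahead, at -9.82 ± 0.65 (adjusted p = 8.15e-07) for a against alpha cells. Second was a 306 bp model on chromosome D (259328 to 259633, minus strand), with 31.2, 39.4 and 51 CPM in alpha cells, 15.0, 13.1 and 13.7 CPM in a cells, and 41.2, 12.4 and 17.4 CPM in a/alpha cells. The alpha libraries lay above the a libraries, and a/alpha replicate 1 lay within the alpha range. It differed between a and alpha cells by -1.54 ± 0.31 (adjusted p = 0.00506). A 390 bp model on chromosome H (1852884 to 1853273, plus strand) ranked next, with 300, 354 and 554 CPM in alpha cells, 120, 153 and 153 CPM in a cells, and 205, 106 and 139 CPM in a/alpha cells. Its alpha libraries lay above the other 6. The difference between a and alpha cells was -1.50 ± 0.26 (adjusted p = 0.00219), on the log2 scale, and -0.89 with the length trend as a covariate. A 384 bp model on chromosome A (630443 to 630826, plus strand) was at 21.1, 22.5 and 20.9 CPM in alpha cells and below 10 CPM in every other library, and differed by -1.43 ± 0.21 (adjusted p = 8.17e-04).

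The model 591 bp to its right (631418 to 631852, 435 bp, same strand) was also higher in alpha cells, by 2.58 over a/alpha cells (adjusted p = 5.25e-07). A model on chromosome H (389155 to 389412, 258 bp) completed the 5, at -1.43 on the log2 scale (adjusted p = 0.00748). It was at -0.58 (adjusted p = 0.0763) with the length trend as a covariate.

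The 3 shortest models past the filter were 2 of 177 bp on chromosomes E (433827 to 434003) and G (754885 to 755061) and 1 of 180 bp on D (189947 to 190126). They differed widely in level, at 33.6, 2358 and 2505 CPM per kb. The one on chromosome G had 250, 251 and 289 CPM in a cells, 525, 551 and 811 CPM in alpha cells, and 490, 282 and 308 CPM in a/alpha cells, so that the alpha libraries lay above the other 6, while a and a/alpha cells overlapped. It was higher in alpha than in a cells by 1.26 on the log2 scale, since a against alpha cells was -1.26 ± 0.23 (adjusted p = 0.0028). With the length trend removed by offsets this was -0.75 (adjusted p = 0.00304), and with it as a covariate -0.88 (adjusted p = 0.0211).

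The authors' deposited tables hold the comparisons with a/alpha cells. At an adjusted p under 0.05, the authors' deposited table called 30 of the 276 short models in a against a/alpha cells, 26 higher and 4 lower, where it called 13.4% of all models with an adjusted p. In alpha against a/alpha cells the authors' deposited table called 62 higher and 1 lower, where it called 10.8% of all models. The edgeR fit called 29 of those 30 and 53 of those 63 in the same direction, and called 0 in the opposite direction. These are 96.7% and 84.1% of the authors' calls, and 90.6% and 67.9% of the edgeR calls.

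The 16 short models with an opposite-strand overlap all lay within the range of the other model, 14 came from snap_masked, and 15 passed the filter. In 14 of 16 pairs the short model stood higher per kb than its partner, by a median ratio of 1.89 over all pairs (1.52 with 64 bp added to each length). On chromosome G, for example, the 189 bp model at 980402 to 980590 stood at 126 CPM per kb and the opposite-strand model around it (980180 to 982027) at 41 CPM per kb, a ratio of 3.08. The fold changes of the 2 models of a pair differed by a median of 0.07 to 0.08 on the log2 scale over the 3 comparisons, and by at most 0.92. Some pairs stood apart in alpha against a/alpha cells. The short model at 574801 on chromosome B was at 1.19 and its partner at 0.35, and that at 857006 on chromosome E at 0.64 and its partner at -0.13.

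**Figure D5:**
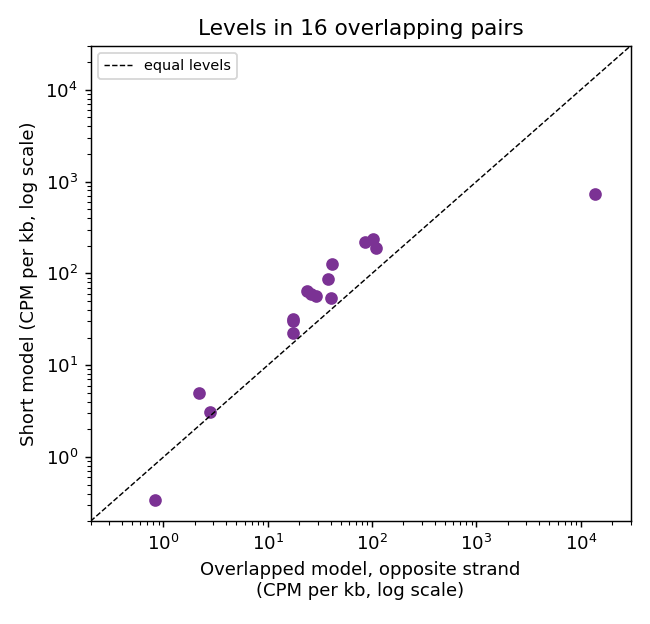
Level (CPM per kb, log scales) of the 16 short models with an opposite-strand overlap against the level of the model they overlap; the dashed line marks equal levels. In 14 pairs the short model lies above the line, and the lowest ratio was 0.0541.

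Among these 15 tested models, 0 were called in a against a/alpha cells by edgeR, and the same 1 in each of the other comparisons. Of all models tested, 12.9% were called in a against a/alpha, 10.3% in alpha against a/alpha and 17.9% in a against alpha cells. In a against a/alpha cells, 2 of the 15 had an unadjusted edgeR p under 0.05, as had 1381 of all 5042 models. The model called lay on chromosome B (574801 to 575139, plus strand), within the span of a 2-part model (573180 to 575345) at 13613 CPM per kb. It had the lowest ratio to its partner, 0.0541. Its level was 326, 386 and 572 CPM in alpha cells, 93.0, 142 and 151 CPM in a cells, and 257, 144 and 176 CPM in a/alpha cells. The alpha libraries lay above the other 6. In alpha against a/alpha cells the model was at 1.19 on the log2 scale (adjusted p = 0.015). That call was lost without alpha replicate 3, a/alpha replicate 2 or a/alpha replicate 3 (adjusted p from 0.0705 to 0.0998). It differed by -1.73 ± 0.26 in a against alpha cells (adjusted p = 0.00105), or -1.05 with the length trend as a covariate, where its partner differed by -0.81 (adjusted p = 0.0185), on the log2 scale. Reads were counted with strand setting 1 from a directional kit, and whether the counts of a pair separate its strands was not tested.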

How the data were processed

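The authors deposited read counts per gene model for 9 libraries; per the file headers, they were made with featureCounts 2.0.1 over coding parts with strand setting 1, from 14 alignments whose paths name fastp and STAR (5 are not analysed here). The comparison tables that the authors deposited hold a mean signal, log2 fold changes with errors, a test score and p-values; the submitters' processing notes name DESeq2 and no design. Aligner settings and genome build are not given in the sources used here.

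Counts of all 9 libraries were fitted together with edgeR 4.0.16 in R 4.3.3 (TMM factors, filterByExpr, quasi-likelihood tests, group as the only term, Benjamini-Hochberg adjustment over 5042 models). The script was tested on simulated data. CPM use the TMM factors, levels per kb divide by coding length, and medians of levels use log2(CPM per kb + 0.1). DESeq2 1.42.0 and the other alternatives are in the closing section.

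Libraries of a and alpha cells with the same replicate number deviated together from their group means (correlations of 0.762, 0.228 and 0.559). The labels do not say what a number shares. In both cell types the length trend also rose from replicate 1 to replicate 3, and whether the numbers pair these libraries was not tested. The main fit takes no account of such a pairing. For a with a/alpha cells the correlations were 0.0967, 0.00665 and 0.135, and for alpha with a/alpha cells -0.0128, -0.034 and 0.174.

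The members, lists and tests were chosen with earlier results of these data known. Models named are those with the largest change per comparison and direction (up to 5, libraries not overlapping), the 5 most abundant per kb, the 3 with the smallest range and the 3 shortest; the model at 719919 on chromosome H and the other adjacent models are named as neighbours of these. The planned search for named gene families could not be run, since the files pair no names. P-values measure the spread between these cultures of 1 strain each.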

Additional observations from a re-analysis of the deposited data

Results flagged for a closer look

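For 10 of the short models named for a difference from a/alpha cells, the difference in a cells was itself different from that in alpha cells, by the edgeR quasi-likelihood test of a against alpha cells (adjusted p under 0.05). The values are the difference in a cells minus that in alpha cells, on the log2 scale. They were 5.98 for the model on chromosome H at 1844663 to 1844956, 2.49 for H at 1999166 to 1999423, 2.21 for B at 201411 to 201764, 1.80 for H at 721167 to 721361, 1.31 for G at 681960 to 682298 and 0.73 for H at 896848 to 897225. They were -9.82 for the model on chromosome A at 472961 to 473335, -1.17 for A at 61450 to 61848, -0.73 for B at 359144 to 359323 and -0.52 for G at 261471 to 261797. The model on chromosome F at 1112265 to 1112564 was not among them, at -0.08. Of the 10, 3 were not past the threshold of the edgeR test in a fit that takes out the trend with coding length. They were B at 359144 (-0.24, adjusted p = 0.461 by offsets, and -0.40, adjusted p = 0.33 as a covariate), G at 261471 (-0.12, adjusted p = 0.712 by offsets) and H at 896848 (0.52, adjusted p = 0.177 as a covariate). These 3 were also lost in edgeR fits without 1 library, each for 6 or more of the 9 libraries, with an adjusted p up to 0.17. As a covariate, the trend gave 6.7 for H at 1844663, 2.80 for B at 201411 and 1.95 for G at 681960.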

How the results depend on the processing

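Counts of short models are given for a against a/alpha, alpha against a/alpha and a against alpha cells in that order, and were 32, 78 and 84 in the report. The percentages of all models called by the same fit follow in brackets. Leaving out 1 library gave 21 to 58, 18 to 132 and 29 to 120 (6.6 to 21.2%, 3.0 to 23.1% and 8.44 to 23.8%). The replicate block gave 55, 139 and 136 (24.1, 30.8 and 31.2%), and fits of 2 groups alone gave 30, 119 and 45 (11, 18.4 and 12.6%), or 39, 134 and 170 with the replicate block (14, 24.8 and 43.6%). Counting only models under 300 bp gave 14, 36 and 31 (12.9, 10.3 and 17.9%). Tested were 18 models under 200 bp and 91 from 200 to under 300 bp. A fold of at least 2 gave 22, 39 and 26 (5.14, 4.6 and 5.61%). The alternatives chosen after seeing the data gave 50, 37 and 48 with the length trend removed by offsets (16.7, 10.4 and 16.5%), and 78, 36 and 29 with it as a covariate (30.6, 7.28 and 13.5%). Also chosen afterwards, the 97 tested short models 300 bp or more from both neighbours gave 19, 29 and 31 (12.9, 10.3 and 17.9%). These are 19.6, 29.9 and 32% of the 97, where longer models as far from neighbours were called in 18.2, 13 and 21.6%. DESeq2 gave 37, 106 and 102 (15.9, 16.4 and 21.5%). Correlations by replicate number were highest between a and alpha libraries, and the block over all groups also takes in the a/alpha libraries. The cause of the changes was not tested.

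The excess of short over longer models stayed at 1.96 or more on the log2 scale in every cell type and setting run. Restricting it to augustus_masked models gave 2.92, 3.51 and 2.92 in a, alpha and a/alpha cells. Restricting it to models away from neighbours gave 2.10 in a and 1.96 in a/alpha cells; in a/alpha cells, 64 bp added to each length gave 2.03, no filter 2.06 and models under 300 bp 2.00. Models under 300 bp held 2.25, 2.31 and 1.52% of the counts. Of 551 alternative values of 29 fold changes, each in the comparison its model was named for, 523 were past the threshold in the same direction, 28 were not past it and 0 reversed. The 28 fell on 8 of the 29, with the most (9) for the model on chromosome H at 1999166 in alpha against a/alpha cells. Depth limits a/alpha replicate 1, where the median short model had 37 counts.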
